A study of Danio rerio with 42 samples.

Results

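The circadian clock genes of the zebrafish were followed by arm through every group of a study of embryonic alcohol exposure (EAE) and diet. The set was a list of 40 gene symbols, and 39 of them were found among the 25935 genes counted in larvae and the 25680 genes counted in adult livers. The exception was cry3, which is not analysed here. The list fell into 8 arms: 6 activators (clocka, clockb, npas2, arntl1a, arntl1b and arntl2), 4 period genes, 8 cryptochromes (7 found), 8 genes of the REV-ERB and ROR loop, 6 PAR-bZIP output genes (dbpa, dbpb, tefa, tefb, hlfa and hlfb), 3 D-box repressors (nfil3, nfil3-5 and nfil3-6), 2 E-box repressors (bhlhe40 and bhlhe41) and 3 casein kinase genes (csnk1da, csnk1db and csnk1e).

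All fish were wild type of the AB strain, kept in 0%, 0.5% or 1% EtOH between 12 hpf and 5 dpf and then moved out of EtOH. The larval groups were EAE larvae (1% EtOH) and control larvae (0% EtOH), each on a high-fat, high-cholesterol (HFHC) diet or a normal diet (ND) begun at 6 dpf, with 3 libraries per group, each library a pool of 15 whole siblings at 13 dpf. The adult groups were single livers of fish given 0%, 0.5% or 1% EtOH as embryos and challenged with HFHC diet or ND for 8 weeks starting at 65 dpf, with 5 livers per group. The labels give no sex, and the study describes the fish of the liver comparison as male. It also describes the EtOH cohorts of the livers as family-matched, and the labels name no family. Levels are read counts scaled to library size as CPM by the TMM method, and in whole larvae or whole livers fewer cells of a type and less RNA per cell cannot be told apart. The sources used here give neither the time of day of collection nor the light cycle, and the part of collection time in any difference was not tested.

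The vertebrate clock is a transcriptional feedback loop. CLOCK or NPAS2 pairs with BMAL proteins (the arntl genes) and switches on E-box genes, among them the period, cryptochrome and REV-ERB genes. PER and CRY proteins then shut CLOCK and BMAL down, the casein kinases set the life span of PER, and REV-ERB and ROR receptors compete to repress or activate the arntl genes. The PAR-bZIP factors DBP, TEF and HLF carry the rhythm to output genes through D-boxes, where the NFIL3 repressors compete with them. In zebrafish the clocks of peripheral organs respond to light directly, and per2 and cry1aa are light-induced. Feeding time is a known cue for the liver clock of vertebrates.

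Hepatocyte markers (10 of 10 found) summed to 44621 to 287608 CPM in livers and 10239 to 13827 CPM in whole larvae. Library totals were 18582927 to 39115243 reads in larvae and 8131371 to 12963071 reads in livers. The summed level of the 6 exocrine pancreas markers found in livers was 126 to 507 CPM in 0% EtOH HFHC livers and 1744 to 19380 CPM in 0% EtOH ND livers, and that of 6 intestine markers was 25.9 to 307 CPM and 24.6 to 6459 CPM in the same groups. In 1% EtOH livers the pancreas markers summed to 173 to 720.3 CPM on HFHC diet and 1343 to 15298 CPM on ND. Livers 1, 2 and 3 of the 0% EtOH ND group, livers 3 and 5 of the 1% EtOH ND group and liver 2 of the 0.5% EtOH HFHC group each had over 1000 CPM of intestine markers. Members called by edgeR, the main test, with calls that rest on them are given with and without these 6 livers. Calls by DESeq2, the second test, are not. Among larvae, 12 photoreceptor markers summed to 2633 to 2900 CPM in EAE ND pools and 1846 to 2441 CPM in control ND pools, without overlap, and 7 neuron markers summed to 892 to 956 CPM and 722 to 777 CPM in those pools, also without overlap. On HFHC diet the photoreceptor sums of control pools, 1881 to 2526 CPM, overlapped those of control ND pools. The part of these cell types in the results below was not tested.

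Levels in control ND larvae were compared between genes as TPM, which is corrected for gene length. The E-box repressor bhlhe40 stood at 137 ± 9.398 TPM (SD, n = 3), the REV-ERB genes nr1d1 and nr1d2a at 127 ± 2.83 and 105 ± 2.22 TPM, and tefa at 95.9 ± 3.48 TPM. The lowest members were nr1d4b at 0.404 ± 0.171 TPM, clocka at 0.757 ± 0.207 TPM and nr1d4a at 0.845 ± 0.117 TPM. Paralogs could differ widely: clockb stood at 13.8 ± 0.914 TPM, far above clocka, and tefb at 25.5 ± 1.86 TPM, below tefa. The pair hlfa and hlfb stood at 21.3 ± 1.98 and 7.66 ± 1.11 TPM. All 39 genes passed the low-count filter in larvae.

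HFHC diet raised 23 of 39 clock genes in control larvae and 14 of 39 in EAE larvae, with calls in the period, cryptochrome, REV-ERB and ROR, PAR-bZIP and D-box arms in both and none among the activators in either. The E-box repressors and the kinases had 1 call each in control larvae and 0 in EAE larvae. With 17.1% of all genes called in control larvae and 12.3% in EAE larvae, 0 calls do not set so small an arm apart. In control larvae 24 of 39 members passed an adjusted p of 0.05 by edgeR's quasi-likelihood test, 61.5% of the set, where 17.1% of all 19657 genes tested did. Of these 23 rose, against 9.58% of all genes that rose, and 1 fell, against 7.55% of all genes that fell. In EAE larvae 14 of 39 members (35.9%) passed, where 12.3% of all genes did, and all 14 rose, against 8.19% of all genes that rose and 4.13% that fell. The median log2 fold change over the members was 0.25 in control larvae and 0.19 in EAE larvae, and over all genes tested it was 0.01 and 0.00. Of the 24 calls in control larvae 18 were kept when any 1 of the 6 pools was left out, and of the 14 in EAE larvae 9 were kept. The comparisons in control and in EAE larvae share no pools. The 6 adipocyte markers summed to 98.4 to 107 CPM in control HFHC pools and 80.7 to 94.7 CPM in control ND pools, and to 102 to 113 CPM in EAE HFHC pools and 67.4 to 86.0 CPM in EAE ND pools, without overlap in either background. Most of each sum was fabp11a (median 82.9 CPM over the larval pools), and 3 of the 6 were tested. Of these cidec was called higher in control larvae, and cidec and fabp11a in EAE larvae. In EAE larvae 3 further sums were apart between the diets. Photoreceptor markers summed to 2004 to 2389 CPM in EAE HFHC pools and 2633 to 2900 CPM in EAE ND pools (7 of 12 markers called lower), neuron markers to 774 to 832 CPM and 892 to 956 CPM (1 of 7 called lower) and erythrocyte markers to 367 to 419 CPM and 214 to 253 CPM (4 of 4 tested called higher). In control larvae 3 of 7 neuron markers were called higher, and of the 12 photoreceptor markers 2 were called higher and 3 lower. The part of these cell types in the diet results was not tested.

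**Figure D1:**
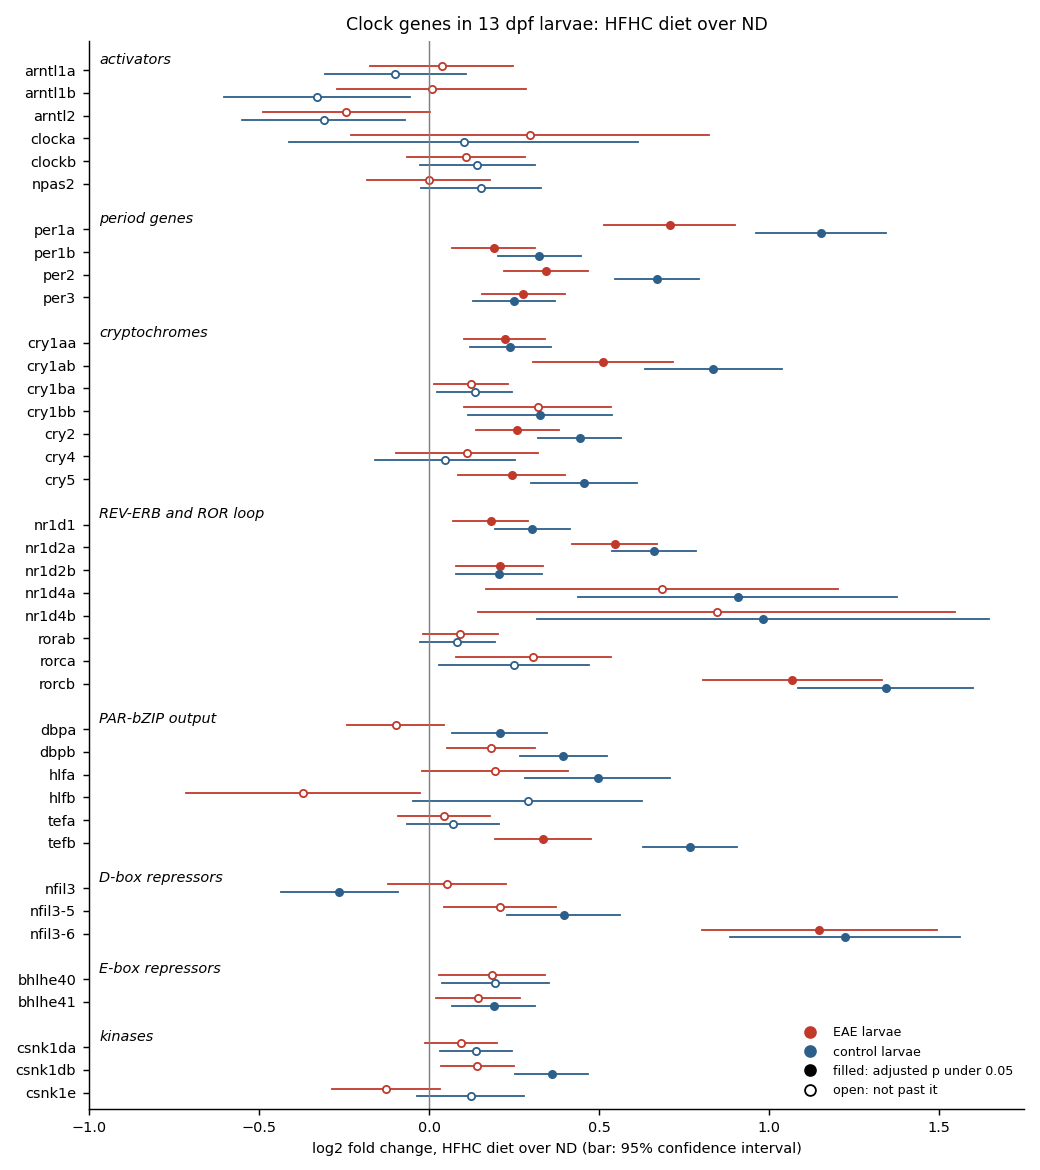
The log2 fold change of HFHC diet over ND is plotted for each of 39 clock genes, grouped by arm, in EAE larvae (red) and control larvae (blue), with 95% confidence intervals from edgeR and filled points for an adjusted p under 0.05. The 6 activators all have open points near or below 0.30, while per1a, nr1d2a, rorcb, tefb and nfil3-6 are filled and above 0 in both.

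The period genes, which encode core repressors of the loop, all rose on HFHC diet in both backgrounds. In control larvae per1a (chromosome 10, 22841347 to 22862023 in GRCz10) had 59.13, 63.0 and 70.9 CPM in HFHC pools, against 33.3, 26.2 and 27.4 CPM in ND pools (log2 fold change 1.15 ± 0.09 (SE), adjusted p = 7.92e-07). In EAE larvae per1a had 53.8, 62.7 and 54.4 CPM in HFHC pools, against 35.0, 35.7 and 34.0 CPM in ND pools (log2 fold change 0.71 ± 0.09 (SE), adjusted p = 0.000109). Every HFHC pool lay above every ND pool, and the control HFHC pools reached the highest levels. The light-induced gene per2 had 163, 144 and 151 CPM in control HFHC pools, against 98.0, 93.4 and 96.6 CPM in control ND pools (log2 fold change 0.67 ± 0.06 (SE), adjusted p = 1.79e-06), and 135, 137 and 136 CPM in EAE HFHC pools, against 111, 101 and 109 CPM in EAE ND pools (log2 fold change 0.34 ± 0.06 (SE), adjusted p = 0.00109). Here too the diets did not overlap, and EAE pools lay below control pools on HFHC diet and above them on ND. But edgeR called no EAE effect for per2 on either diet, and the share of all genes with groups apart was not counted. The smaller rises of per1b were 0.32 ± 0.06 in control larvae and 0.19 ± 0.06 in EAE larvae on the log2 scale (SE), with adjusted p = 0.00135 and 0.04. For per3 they were 0.25 ± 0.06 and 0.28 ± 0.06, with adjusted p = 0.00751 and 0.00438. The per1b call in EAE larvae was lost whichever of the 6 pools was left out (adjusted p up to 0.113). It was kept under 4 of 8 alternative settings of filter, scaling, model or test.

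**Figure D2:**
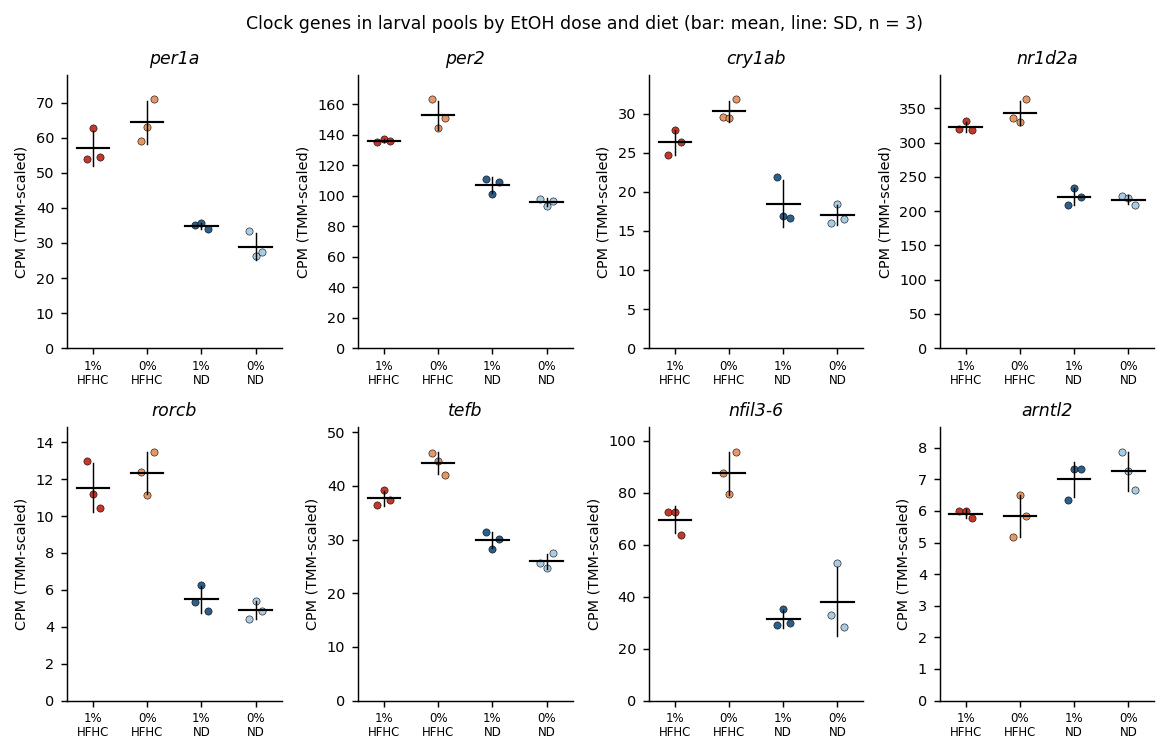
TMM-scaled CPM of 8 clock genes is plotted for the 3 pools of each larval group (points), with the group mean (bar) and SD (line), for 1% EtOH and 0% EtOH larvae on HFHC diet and then on ND. In all panels but that of arntl2 the HFHC pools lie above the ND pools of the same EtOH dose, and for per1a, per2, cry1ab, nr1d2a, tefb and nfil3-6 the control HFHC group has the highest mean.

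Among the genes listed as cryptochromes 5 of 7 rose in control larvae, where 9.58% of all genes rose. In EAE larvae 4 of 7 rose, where 8.19% of all genes rose. cry1ab had 29.5, 29.5 and 31.8 CPM in control HFHC pools, against 16.1, 18.4 and 16.5 CPM in control ND pools (log2 fold change 0.84 ± 0.09 (SE), adjusted p = 2.22e-05), and 24.7, 27.9 and 26.4 CPM in EAE HFHC pools, against 21.9, 16.8 and 16.7 CPM in EAE ND pools (log2 fold change 0.51 ± 0.10 (SE), adjusted p = 0.00246). One EAE ND pool stood above the other two of its group but below all HFHC pools. cry2 had 51.0, 52.4 and 50.5 CPM in control HFHC pools, against 36.2, 37.1 and 39.7 CPM in control ND pools (log2 fold change 0.44 ± 0.06 (SE), adjusted p = 8.8e-05). In EAE larvae cry2 had 50.5, 51.3 and 50.9 CPM in HFHC pools, against 44.1, 43.4 and 40.2 CPM in ND pools (log2 fold change 0.26 ± 0.06 (SE), adjusted p = 0.00742). The HFHC levels of cry2 were nearly the same in both backgrounds. The ND levels of EAE pools lay above those of control pools, but edgeR did not call this difference. cry5 rose by 0.46 ± 0.07 in control larvae (adjusted p = 0.000665) and 0.24 ± 0.07 in EAE larvae (adjusted p = 0.0437), and the light-induced cry1aa rose by 0.24 ± 0.06 (adjusted p = 0.00911) and 0.22 ± 0.06 (adjusted p = 0.0159). cry1bb rose in control larvae by 0.33 ± 0.10 (adjusted p = 0.0348), while its value in EAE larvae was 0.32 ± 0.10 (adjusted p = 0.0509). cry1ba and cry4 did not pass in either background. With a pool left out the call of cry1bb in control larvae was lost in 5 of 6 fits (adjusted p up to 0.124), all but that without ND pool 1. In EAE larvae the call of cry1aa was lost without ND pool 2 or 3 or HFHC pool 3 (adjusted p up to 0.0866), and that of cry5 without ND pool 2 or 3 or HFHC pool 1 or 2 (adjusted p up to 0.151). The cry5 call in EAE larvae was kept under 3 of 8 alternative settings, and DESeq2 did not call it.

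In the REV-ERB and ROR loop 6 of 8 members rose in control larvae and 4 of 8 in EAE larvae. Of all genes 9.58% and 8.19% rose. nr1d2a, a REV-ERB repressor of the arntl genes (chromosome 16, 49879775 to 49907024), had 336, 330.3 and 363 CPM in control HFHC pools, against 222, 219 and 209 CPM in control ND pools (log2 fold change 0.66 ± 0.06 (SE), adjusted p = 1.84e-06). In EAE larvae nr1d2a had 319, 331 and 318 CPM in HFHC pools, against 209, 234 and 221 CPM in ND pools (log2 fold change 0.55 ± 0.06 (SE), adjusted p = 2.63e-05). The pools of the same diet overlapped between EAE and control larvae, and those of different diets did not. nr1d1 had 225, 227 and 241 CPM in control HFHC pools, against 189.6, 186 and 186 CPM in control ND pools (log2 fold change 0.30 ± 0.05 (SE), adjusted p = 0.0011), and 231, 229.8 and 228 CPM in EAE HFHC pools, against 212, 197 and 198 CPM in EAE ND pools (log2 fold change 0.18 ± 0.05 (SE), adjusted p = 0.0325). The diets separated for nr1d1 as well, at a smaller fold. nr1d2b rose by 0.21 ± 0.06 (adjusted p = 0.0266) in control larvae and 0.21 ± 0.06 (adjusted p = 0.0325) in EAE larvae. The largest fold of the members in control larvae was that of rorcb, an ROR receptor gene (chromosome 2, 49683670 to 49720221), at 1.34 ± 0.12 in control larvae (adjusted p = 2.31e-06) and 1.07 ± 0.12 in EAE larvae (adjusted p = 5.04e-05). Its level was 11.1 to 13.4 CPM in control HFHC pools, against 4.42 to 5.40 CPM in control ND pools, and 10.4 to 12.99 CPM in EAE HFHC pools, against 4.84 to 6.28 CPM in EAE ND pools. The scarce genes nr1d4a and nr1d4b rose in control larvae, by 0.91 ± 0.22 (adjusted p = 0.0113) and 0.98 ± 0.31 (adjusted p = 0.0415), at no more than 1.71 CPM in any pool. rorab and rorca did not pass in either background. With a pool left out the call of nr1d2b was lost in 4 of 6 fits in control larvae (without pool 1 or 3 of either diet, adjusted p up to 0.107) and in 4 of 6 fits in EAE larvae (without pool 2 or 3 of either diet, adjusted p up to 0.118). That of nr1d4b in control larvae was lost without ND pool 2 or 3 or HFHC pool 1 or 3 (adjusted p up to 0.19), and that of nr1d1 in EAE larvae in 5 of 6 fits, all but that without ND pool 1 (adjusted p up to 0.141). The nr1d4b call was kept under 2 of the 6 alternative settings that tested it.

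Of the 6 PAR-bZIP output genes, 4 rose in control larvae, where 9.58% of all genes rose. In EAE larvae 1 passed, tefb, where 8.19% of all genes rose. For a difference of the diet effect between the backgrounds edgeR called 0 of 39 members. tefb, a D-box activator (chromosome 3, 5142981 to 5157744), had 46.2, 44.6 and 42.1 CPM in control HFHC pools, against 25.6, 24.7 and 27.4 CPM in control ND pools (log2 fold change 0.77 ± 0.07 (SE), adjusted p = 1.51e-06). In EAE larvae tefb had 36.5, 39.2 and 37.4 CPM in HFHC pools, against 31.4, 28.3 and 30.1 CPM in ND pools (log2 fold change 0.34 ± 0.07 (SE), adjusted p = 0.00336). The 4 groups did not overlap: EAE pools lay below control pools on HFHC diet and above them on ND. But tefb had the smallest p of its arm, and edgeR called no EAE effect for it on either diet. The share of all genes with groups apart was not counted. In control larvae hlfa rose by 0.50 ± 0.10 (adjusted p = 0.00372), dbpb by 0.39 ± 0.06 (adjusted p = 0.00043) and dbpa by 0.21 ± 0.07 (adjusted p = 0.0406). The dbpa call was lost in 5 of 6 fits with a pool left out, all but that without ND pool 1 (adjusted p up to 0.155). It was kept under 2 of 8 alternative settings, and DESeq2 did not call it. The corresponding values in EAE larvae were 0.19 ± 0.10 for hlfa, 0.18 ± 0.06 for dbpb and -0.10 ± 0.07 for dbpa, with adjusted p = 0.235, 0.0643 and 0.379. tefa and hlfb did not pass in either background.

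The D-box repressor genes, which oppose the PAR-bZIP factors, did not move together. nfil3-6 (chromosome 3, 13949850 to 13953705) had 87.3, 79.3 and 95.7 CPM in control HFHC pools, against 33.0, 53.0 and 28.2 CPM in control ND pools (log2 fold change 1.22 ± 0.16 (SE), adjusted p = 9.19e-05). In EAE larvae nfil3-6 had 72.7, 72.5 and 63.7 CPM in HFHC pools, against 28.9, 35.4 and 29.9 CPM in ND pools (log2 fold change 1.15 ± 0.16 (SE), adjusted p = 0.000271). No HFHC pool fell as low as any ND pool, and 1 control ND pool stood well above the others of its group. nfil3-5 had 32.3, 30.7 and 33.9 CPM in control HFHC pools, against 27.6, 23.6 and 22.6 CPM in control ND pools (log2 fold change 0.40 ± 0.08 (SE), adjusted p = 0.00302), and 31.8, 32.6 and 35.4 CPM in EAE HFHC pools, against 27.8, 29.9 and 28.7 CPM in EAE ND pools (log2 fold change 0.21 ± 0.08 (SE), adjusted p = 0.0954). nfil3 was the only member that fell, with 17.5, 21.4 and 20.1 CPM in control HFHC pools, against 22.7, 25.3 and 23.0 CPM in control ND pools (log2 fold change -0.26 ± 0.08 (SE), adjusted p = 0.0346). In EAE larvae nfil3 had 21.6, 21.8 and 24.3 CPM in HFHC pools, against 21.5, 22.5 and 21.2 CPM in ND pools (log2 fold change 0.05 ± 0.08 (SE), adjusted p = 0.738). The nfil3 pools of EAE larvae lay close together on both diets, and the call in control larvae was lost in 5 of 6 fits with a pool left out, all but that without HFHC pool 2 (adjusted p up to 0.166).

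Of the E-box repressors and the kinases 1 each was called in control larvae and 0 in EAE larvae. Of all genes 9.58% and 8.19% rose. The E-box repressor bhlhe41 had 88.4, 77.7 and 85.6 CPM in control HFHC pools, against 74.1, 73.9 and 72.8 CPM in control ND pools (log2 fold change 0.19 ± 0.06 (SE), adjusted p = 0.0333), and the call was lost in 5 of 6 fits with a pool left out, all but that without HFHC pool 2 (adjusted p up to 0.141). bhlhe40 had 234, 230.5 and 227 CPM in EAE HFHC pools, against 229.6, 189 and 189 CPM in EAE ND pools (log2 fold change 0.19 ± 0.07 (SE), adjusted p = 0.116), and 227, 213 and 227 CPM in control HFHC pools, against 179, 204 and 199.8 CPM in control ND pools (log2 fold change 0.20 ± 0.07 (SE), adjusted p = 0.0792). One EAE ND pool of bhlhe40 sat among the HFHC pools. Of the kinase genes csnk1db rose in control larvae, with 165, 169 and 174 CPM in HFHC pools, against 136, 128 and 131 CPM in ND pools (log2 fold change 0.36 ± 0.05 (SE), adjusted p = 0.000189). In EAE larvae csnk1db had 150.3, 151 and 157 CPM in HFHC pools, against 136, 139 and 139 CPM in ND pools (log2 fold change 0.14 ± 0.05 (SE), adjusted p = 0.081). The csnk1db diet groups were apart in both backgrounds, but it was called only in control larvae, and the share of all genes with diets apart was not counted. The genes csnk1da and csnk1e did not pass in either background. DESeq2, unlike edgeR, called csnk1da in control larvae (adjusted p = 0.0482).

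None of the 6 activators passed in either background, where 17.1% of all genes did in control larvae and 12.3% in EAE larvae. At those shares 0 of 6 does not set the activators apart. At an unadjusted p under 0.05 there were 2 in control larvae and 0 in EAE larvae. Of all genes 32.4% and 26.7% had such a p. The BMAL-family gene arntl2 had 5.17, 6.51 and 5.84 CPM in control HFHC pools, against 7.88, 7.25 and 6.65 CPM in control ND pools (log2 fold change -0.31 ± 0.11 (SE), adjusted p = 0.0688). In EAE larvae arntl2 had 5.99, 6.00 and 5.77 CPM in HFHC pools, against 6.35, 7.32 and 7.34 CPM in ND pools (log2 fold change -0.24 ± 0.12 (SE), adjusted p = 0.191). All HFHC pools of arntl2 lay below all ND pools of the same background, at levels under 8 CPM. It was picked by its small p in control larvae, and the share of all genes with diets apart was not counted. arntl1b had 4.38, 4.75 and 4.87 CPM in control HFHC pools, against 5.78, 6.82 and 5.22 CPM in control ND pools (log2 fold change -0.33 ± 0.13 (SE), adjusted p = 0.0904), and 4.70, 6.00 and 5.67 CPM in EAE HFHC pools, against 5.43, 5.74 and 5.10 CPM in EAE ND pools, where the fold was 0.01 ± 0.13. The 95% interval of the diet effect in control larvae was -0.30 to 0.11 for arntl1a, -0.03 to 0.31 for clockb, -0.02 to 0.33 for npas2 and -0.41 to 0.62 for the scarce clocka.

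Other genes tied to the clock were read from a separate list of 23 tested in larvae, of which 8 passed in control larvae, where 17.1% of all genes did, and 4 in EAE larvae, where 12.3% of all genes did. In control larvae 6 rose, namely ciarta (a repressor of CLOCK and BMAL, 0.38 ± 0.07), cipca (a CLOCK-interacting repressor, 0.42 ± 0.11), roraa (0.29 ± 0.09), rorc (0.79 ± 0.16), usp2b (0.78 ± 0.12) and namptb, an enzyme of NAD synthesis (0.38 ± 0.09). In the same larvae tipin (-0.23 ± 0.07) and nono (-0.17 ± 0.05) fell. In EAE larvae ciarta (0.27 ± 0.07), cipca (0.51 ± 0.11) and rorc (0.77 ± 0.18) rose and nono (-0.24 ± 0.05) fell. These are log2 fold changes with their SE, and their adjusted p-values ran between 0.000437 and 0.0399. A further list held DNA repair, cryptochrome-family, photopigment and melatonin-synthesis genes, of which 16 were tested in larvae. The light-induced members per2 and cry1aa, which rose in both backgrounds, are not in it. None of the 16 passed in control larvae by edgeR, also none at an unadjusted p under 0.05. In EAE larvae 2 rose, cry-dash (0.31 ± 0.08) and ddb2 (0.23 ± 0.07). Both are DNA repair or cryptochrome-family genes that light switches on in zebrafish. These 2 of 16 are a share close to the 12.3% of all genes.

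EAE itself gave no call among the 39 members in larvae. On ND 0 of 39 members passed in edgeR, where 1.31% of all genes did, and 0 in DESeq2, where 2.8% of all genes did. Few of all genes were called, so that 0 calls does not set the members apart. At an unadjusted p under 0.05 there were 10 members on ND (25.6% of the set, where 15.6% of all genes had such a p). The smallest p on ND was that of csnk1e, with 19.2, 18.3 and 19.9 CPM in EAE ND pools, against 15.5, 16.0 and 16.9 CPM in control ND pools (log2 fold change 0.24 ± 0.07 (SE), adjusted p = 0.11). All 3 EAE ND pools of csnk1e were above the control ND pools, while on HFHC diet csnk1e had 18.0, 16.9 and 17.6 CPM in EAE pools, against 18.9, 16.3 and 17.5 CPM in control pools, which overlapped. The leading member of each other arm on ND was tefb (log2 fold change 0.20 ± 0.07 (SE), adjusted p = 0.142), cry2 (log2 fold change 0.17 ± 0.06 (SE), adjusted p = 0.143), nfil3-5 (log2 fold change 0.23 ± 0.08 (SE), adjusted p = 0.149), per1a (log2 fold change 0.27 ± 0.09 (SE), adjusted p = 0.151), nr1d1 (log2 fold change 0.11 ± 0.05 (SE), adjusted p = 0.308), arntl1b (log2 fold change -0.11 ± 0.13 (SE), adjusted p = 0.749) and bhlhe40 (log2 fold change 0.06 ± 0.07 (SE), adjusted p = 0.771), whose pools are given above. For tefb, cry2, nfil3-5, per1a and nr1d1 all EAE ND pools lay above all control ND pools, and for arntl1b and bhlhe40 they overlapped. These leading members, like csnk1e, were picked by their small p in the same pools, so that such separation adds nothing to the p. The summed photoreceptor and neuron markers were also higher in all EAE ND pools, and the 6 erythrocyte markers were lower, at 214 to 253 CPM in EAE ND pools and 295 to 319 CPM in control ND pools. Their part was not tested.

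On HFHC diet 0 of 39 members passed for EAE in edgeR, where 0.234% of all genes did, and 0 in DESeq2, where 0.77% did. At an unadjusted p under 0.05 there were 8 members (20.5%), where 8.31% of all genes had one. The smallest p was that of tefb (log2 fold change -0.23 ± 0.06 (SE), adjusted p = 0.193), followed by csnk1db (log2 fold change -0.15 ± 0.05 (SE), adjusted p = 0.361) and per2 (log2 fold change -0.17 ± 0.06 (SE), adjusted p = 0.364). In these 3 genes every EAE HFHC pool lay below every control HFHC pool, but they were picked by their small p in the same pools. The leading members of the other arms were nfil3 (log2 fold change 0.20 ± 0.08 (SE), adjusted p = 0.502), cry1ab (log2 fold change -0.20 ± 0.09 (SE), adjusted p = 0.582), arntl1b (log2 fold change 0.23 ± 0.13 (SE), adjusted p = 0.704), nr1d2a (log2 fold change -0.09 ± 0.06 (SE), adjusted p = 0.755) and bhlhe41, with 79.5, 79.0 and 83.5 CPM in EAE HFHC pools and the control values given above (log2 fold change -0.06 ± 0.06 (SE), adjusted p = 0.863). The erythrocyte markers summed to 367 to 419 CPM in EAE HFHC pools and 301 to 363 CPM in control HFHC pools. Most of the sum was alas2 and slc4a1a (medians 110 and 165 CPM over the larval pools). The single markers did not move together: of 4 tested by edgeR, 2 were higher and 2 lower in EAE pools. All 4 had an unadjusted p under 0.05 and 0 were called. The part of this cell type was not tested. The EAE comparisons on ND and on HFHC diet share no pools.

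Whether the diet effect differed between EAE and control larvae was tested as an interaction. In edgeR 0 of 39 members passed, where 0.254% of all genes did, and 12 members (30.8%) had an unadjusted p under 0.05, where 13.8% of all genes had one. DESeq2 called 2, tefb and per2, beside 1.52% of all genes. For tefb the diet rise was smaller in EAE larvae by -0.43 ± 0.09 on the log2 scale (adjusted p = 0.0582 in edgeR and 0.0196 in DESeq2), and for per2 by -0.33 ± 0.08 (adjusted p = 0.0872 and 0.0283). With control HFHC pool 2 left out edgeR called 2 members, and tefb passed in 2 of 12 such fits. The member with the smallest p in the other arms was csnk1db (log2 fold change -0.22 ± 0.07 (SE), adjusted p = 0.181), nfil3 (log2 fold change 0.32 ± 0.12 (SE), adjusted p = 0.227), cry1ab (log2 fold change -0.32 ± 0.14 (SE), adjusted p = 0.292), arntl1b (log2 fold change 0.34 ± 0.18 (SE), adjusted p = 0.449), nr1d1 (log2 fold change -0.12 ± 0.07 (SE), adjusted p = 0.498) and bhlhe41 (log2 fold change -0.04 ± 0.08 (SE), adjusted p = 0.856). The sign was negative for 29 of 39 members, with a median of -0.12, and for 9340 of all 19657 genes tested, with a median of 0.01. The interaction subtracts the diet effect in control larvae, which was positive for 35 of 39 members and 10210 of all genes. The pools are shared, so the signs are not a result apart from that effect. The sign was also negative for 12 of 12 photoreceptor markers (median -0.30) and 7 of 7 neuron markers (median -0.25). It was positive for 4 of 4 erythrocyte markers tested (median 1.56), and the part of these cell types was not tested.

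In adult livers the clock genes varied far more from sample to sample than in larval pools. Of the 39 genes, 34 to 36 passed the low-count filter in each comparison. nr1d4a, nr1d4b and hlfb never did and stood at or below 0.639 CPM in every liver, and csnk1e and arntl2 failed it in some comparisons. Liver values are not corrected for gene length, so levels of different genes are not set against each other. Among genes with a mean of 8 CPM or more, the SD of log2 CPM within groups had a median of 0.419 over 23 members and 0.337 over all 6266 genes in single livers, and 0.0714 over 33 members and 0.0981 over all 11651 genes in larval pools. Thus 16 of 23 members varied more than the median gene in livers, and 13 of 33 did in larvae. nr1d2a was the most variable member in livers (SD 1.11), followed by dbpb (0.90) and nr1d1 (0.791), while nr1d2b (0.173) and cry1aa (0.185) were the steadiest. A pool of 15 larvae averages over animals and a single liver does not, and the part of pooling in this contrast was not tested.

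**Figure D3:**
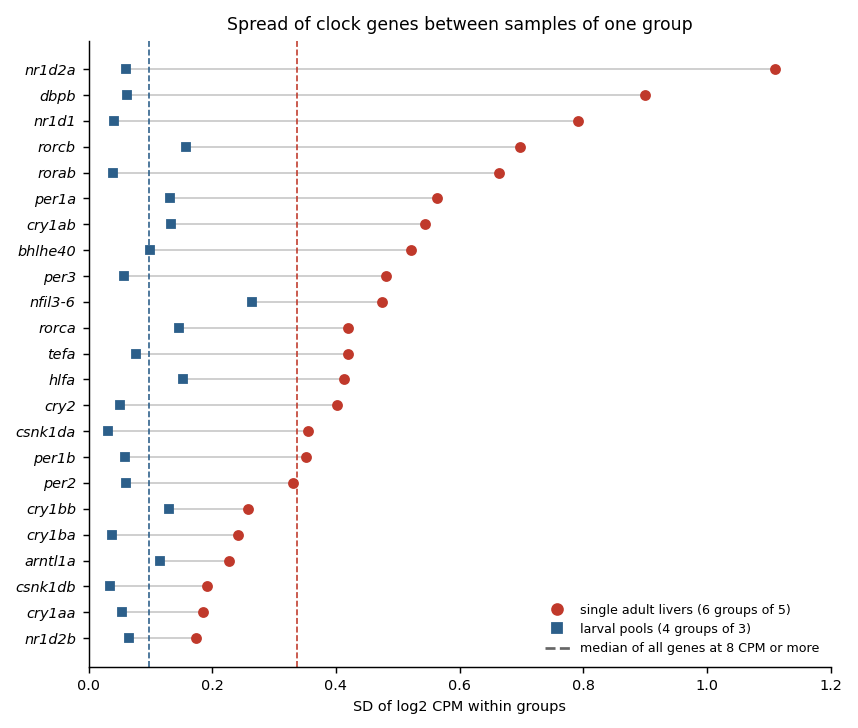
The SD of log2 CPM within groups is plotted for the 23 clock genes with a mean of 8 CPM or more in livers, for single adult livers (red circles, 6 groups of 5) and larval pools (blue squares, 4 groups of 3), with dashed lines at the median of all genes at that level. nr1d2a, dbpb and nr1d1 spread most between livers, at 1.11, 0.90 and 0.791, and nr1d2b, cry1aa and csnk1db least.

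HFHC diet lowered a single member in control livers. Here 1 of 34 members tested passed in edgeR (2.94%), where 1.06% of all genes did, and 5 (14.7%) had an unadjusted p under 0.05, where 18.5% of all genes had one. bhlhe41, an E-box repressor (chromosome 18, 16136786 to 16141099), had 3.12, 3.14, 2.24, 2.80 and 3.12 CPM in 0% EtOH HFHC livers, against 11.5, 13.4, 19.9, 9.67 and 5.75 CPM in 0% EtOH ND livers (log2 fold change -2.10 ± 0.31 (SE), adjusted p = 0.00913). The HFHC livers were close together and all below the ND livers, which were spread more than 3-fold. The call held in each of 10 fits that left out a liver (adjusted p up to 0.044), but without the 3 control ND livers that held intestine markers the log2 fold change was -1.40 and the adjusted p 0.0653, and no member passed. With all 30 livers in 1 fit 4 members passed, with ND liver 5 left out 3 did and with a block for the replicate number 0 did. The pancreas markers, with the sums above, and the 6 adipocyte markers, at 5.42 to 9.17 CPM in 0% EtOH HFHC livers and 11.6 to 22.5 CPM in 0% EtOH ND livers, were likewise apart between the diets, and their part was not tested. Only 1 of the 6 adipocyte markers, fabp11a, passed the low-count filter in this comparison, and it was called lower. In 1% EtOH livers bhlhe41 had 3.03, 1.52, 2.44, 1.56 and 1.89 CPM on HFHC diet, against 6.11, 0.898, 4.84, 2.55 and 8.87 CPM on ND (log2 fold change -1.16 ± 0.49 (SE), adjusted p = 0.31), with overlap. In 0.5% EtOH livers it had 7.76, 3.85, 10.6, 5.98 and 1.085 CPM on HFHC diet, against 9.09, 6.75, 3.83, 5.79 and 1.66 CPM on ND, with wide overlap.

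**Figure D4:**
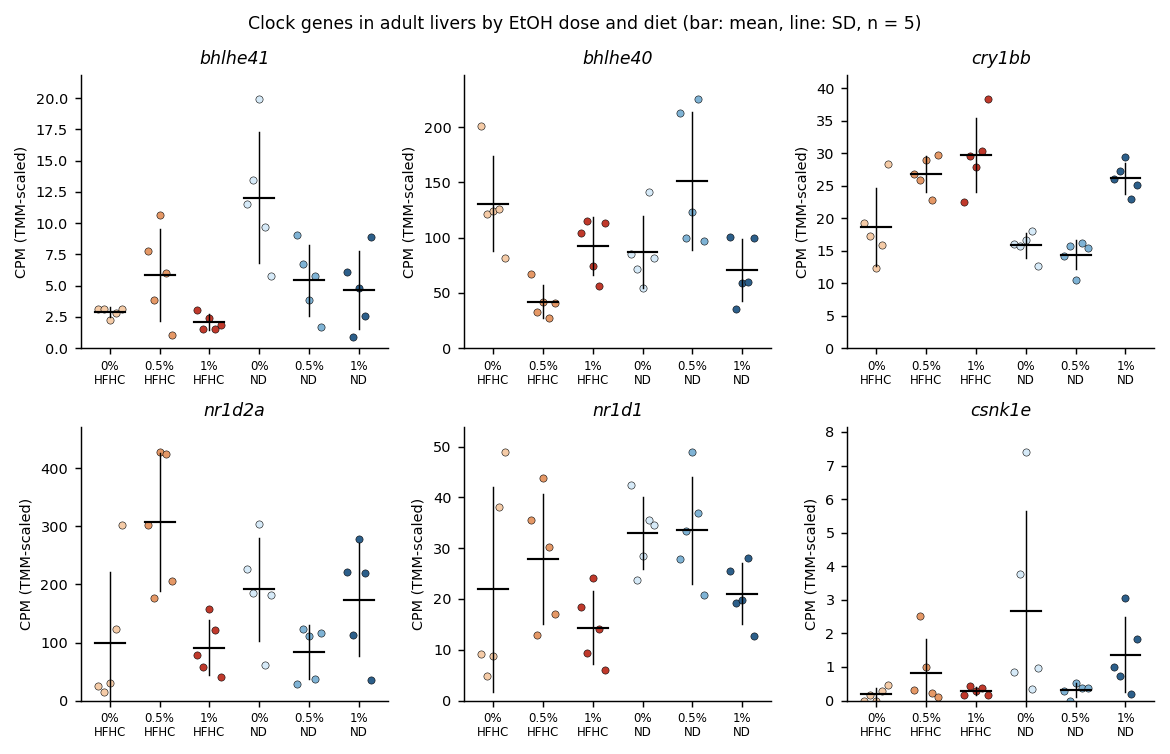
TMM-scaled CPM of 6 clock genes is plotted for each of 5 livers per group (points), with the mean (bar) and SD (line), for 0%, 0.5% and 1% EtOH on HFHC diet and then on ND. bhlhe41 is below 3.2 CPM in all 0% EtOH and all 1% EtOH HFHC livers, bhlhe40 lies below 67 CPM in all 0.5% EtOH HFHC livers, and cry1bb is above 22 CPM in all livers of both 1% EtOH groups and of the 0.5% EtOH HFHC group.

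The other arms in control livers did not pass. The genes below were picked by their small p, and the share of all genes with diets apart was not counted. The PAR-bZIP gene tefa had 37.0, 27.5, 29.7, 38.5 and 42.4 CPM in HFHC livers, against 59.5, 47.3, 65.4, 80.2 and 48.4 CPM in ND livers, without overlap (log2 fold change -0.80 ± 0.19 (SE), adjusted p = 0.075), and cry5 had 1.80, 1.40, 2.24, 1.72 and 3.40 CPM in HFHC livers, against 8.30, 3.47, 4.39, 6.92 and 3.83 CPM in ND livers, also without overlap (log2 fold change -1.35 ± 0.32 (SE), adjusted p = 0.0722). DESeq2 called 4 members, all lower on HFHC diet, namely bhlhe41, tefa, cry5 and csnk1e, beside 8.68% of all genes. The csnk1e reads were highest in ND livers 2 and 3, which held intestine markers, and its DESeq2 call is not given without them. per1a had 8.87, 6.37, 19.99, 12.01 and 9.37 CPM in HFHC livers, against 15.1, 19.1, 16.1, 23.4 and 23.0 CPM in ND livers (log2 fold change -0.79 ± 0.28 (SE), adjusted p = 0.164). Only HFHC liver 3 of per1a reached the ND range. The smallest p of the remaining arms was that of nfil3, with 0.719, 1.92, 0.717, 0.812 and 1.38 CPM in HFHC livers, against 3.73, 1.99, 5.83, 0.3296 and 0.745 CPM in ND livers (log2 fold change -1.22 ± 0.65 (SE), adjusted p = 0.353). For rorca the levels were 19.4, 25.1, 20.3, 24.3 and 27.8 CPM in HFHC livers, against 4.41, 17.1, 18.0, 17.2 and 19.2 CPM in ND livers (log2 fold change 0.59 ± 0.32 (SE), adjusted p = 0.355), and all HFHC livers lay above the ND livers. For arntl1b they were 3.36, 3.75, 1.34, 3.43 and 2.94 CPM in HFHC livers, against 0.339, 2.21, 1.92, 1.98 and 2.55 CPM in ND livers (log2 fold change 0.65 ± 0.41 (SE), adjusted p = 0.425). For csnk1db they were 46.0, 55.9, 57.7, 47.2 and 41.6 CPM in HFHC livers, against 38.5, 60.2, 65.4, 52.7 and 54.3 CPM in ND livers (log2 fold change -0.15 ± 0.18 (SE), adjusted p = 0.695), and both of these genes overlapped between the diets.

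In 1% EtOH livers HFHC diet gave 0 calls among 35 members tested in edgeR, where 1.08% of all genes passed, with 1 member at an unadjusted p under 0.05 (14.3% of all genes). DESeq2 called csnk1e as lower, beside 5.73% of all genes, and its highest ND levels were in livers 3 and 5, which held intestine markers. roraa, 1 of 20 tested from the list of other clock-related genes, fell by 2.13 ± 0.44 on the log2 scale (adjusted p = 0.0476), where 0.879% of all genes fell. Neither call is given without the intestine-marker livers. Beside bhlhe41, the leading members of the arms had p between 0.0527 and 0.353. cry2 had 9.59, 7.66, 8.01, 5.58 and 5.76 CPM in HFHC livers, against 8.70, 9.39, 9.45, 15.4 and 7.91 CPM in ND livers (-0.47 ± 0.22). arntl1b had 2.21, 4.63, 4.004, 3.48 and 4.497 CPM in HFHC livers, against 3.26, 1.39, 3.28, 2.45 and 1.44 CPM in ND livers (0.67 ± 0.31). Both overlapped. nfil3 had 0.902, 2.27, 0.977, 1.83 and 1.42 CPM in HFHC livers, against 1.59, 2.78, 1.72, 2.15 and 3.84 CPM in ND livers (-0.71 ± 0.34). tefa had 27.6, 35.9, 31.8, 23.2 and 23.7 CPM in HFHC livers, against 43.7, 21.1, 38.6, 49.3 and 40.5 CPM in ND livers (-0.44 ± 0.22). nr1d2a had 78.2, 57.5, 158, 122 and 40.9 CPM in HFHC livers, against 221, 114, 278, 220.4 and 36.2 CPM in ND livers (-0.93 ± 0.50). In nr1d2a the highest HFHC livers reached the middle of the ND range, which was itself more than 7-fold wide. csnk1da had 24.3, 49.2, 28.03, 25.3 and 24.6 CPM in HFHC livers, against 40.5, 39.9, 30.6, 37.4 and 35.6 CPM in ND livers (-0.29 ± 0.20), and per1b had 30.7, 30.7, 23.6, 18.8 and 17.3 CPM in HFHC livers, against 20.4, 32.6, 23.4, 42.8 and 22.9 CPM in ND livers (-0.23 ± 0.24).

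In livers of 0.5% EtOH fish no member passed for diet in edgeR. Here 0 of 35 members tested passed and 0% of all genes did, while 15 members (42.9%) had an unadjusted p under 0.05, where 14.1% of all genes had one. DESeq2 called 6 members, 5 higher (cry1bb, nr1d2a, rorcb, nfil3-5 and nfil3-6) and 1 lower (bhlhe40), beside 2.3% of all genes. cry1bb (chromosome 22, 748818 to 792003) had 26.7, 25.9, 28.9, 22.7 and 29.7 CPM in HFHC livers, against 14.2, 15.7, 10.5, 16.1 and 15.4 CPM in ND livers (log2 fold change 0.91 ± 0.15 (SE), adjusted p = 0.0896). bhlhe40 (chromosome 11, 35497669 to 35501340) had 66.9, 32.9, 42.1, 27.8 and 40.5 CPM in HFHC livers, against 213, 99.5, 123, 225 and 96.7 CPM in ND livers (log2 fold change -1.84 ± 0.31 (SE), adjusted p = 0.0896). nfil3-6 had 118, 88.6, 113, 99.6 and 88.0 CPM in HFHC livers, against 42.7, 73.8, 57.0, 51.3 and 49.3 CPM in ND livers (log2 fold change 0.90 ± 0.17 (SE), adjusted p = 0.0896). In these 3 genes the diets did not overlap. These genes and nr1d2a were picked by their small p, and the share of all genes with diets apart was not counted. nr1d2a had 303, 177, 429, 425 and 206 CPM in HFHC livers, against 27.8, 123, 112, 37.1 and 116 CPM in ND livers (log2 fold change 1.90 ± 0.44 (SE), adjusted p = 0.142), again without overlap. With HFHC liver 1 left out bhlhe40 passed, with an adjusted p of 0.0428.

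Further members were compared in the same livers. per1b had 35.6, 19.4, 27.8, 33.3 and 27.4 CPM in 0.5% EtOH HFHC livers, against 36.8, 55.3, 42.3, 40.5 and 43.0 CPM in 0.5% EtOH ND livers (log2 fold change -0.59 ± 0.18 (SE), adjusted p = 0.218). arntl1a, a BMAL gene, had 10.2, 12.9, 12.6, 11.2 and 12.6 CPM in HFHC livers, against 7.91, 6.85, 7.97, 9.27 and 11.6 CPM in ND livers (log2 fold change 0.46 ± 0.16 (SE), adjusted p = 0.273). For per1b the HFHC livers were all lower, and for arntl1a they were higher than all but ND liver 5. tefa had 64.2, 32.4, 35.3, 47.5 and 38.7 CPM in HFHC livers, against 84.0, 93.8, 90.0, 44.6 and 34.9 CPM in ND livers (log2 fold change -0.66 ± 0.29 (SE), adjusted p = 0.346). csnk1da had 33.6, 16.4, 19.1, 26.7 and 29.1 CPM in HFHC livers, against 33.7, 34.9, 30.1, 31.5 and 33.2 CPM in ND livers (log2 fold change -0.38 ± 0.18 (SE), adjusted p = 0.388). The diets overlapped in tefa and csnk1da. The ROR gene rorcb had 55.3, 53.9, 43.3, 56.7 and 61.7 CPM in HFHC livers, against 5.18, 18.1, 5.74, 11.97 and 46.7 CPM in ND livers (log2 fold change 1.63 ± 0.52 (SE), adjusted p = 0.234), and nfil3-5 had 12.9, 9.23, 14.5, 8.61 and 11.5 CPM in HFHC livers, against 0.637, 5.34, 0.531, 2.61 and 5.98 CPM in ND livers (log2 fold change 1.90 ± 0.54 (SE), adjusted p = 0.205). The diets did not overlap in nfil3-5, and in rorcb only ND liver 5 reached the HFHC range. The share of all genes with diets apart was not counted here either.

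For the effect of 0.5% EtOH on HFHC diet, 0 of 35 members passed in edgeR and 0% of all genes did, with 7 members (20%) at an unadjusted p under 0.05, where 11.4% of all genes had one. DESeq2 called rorcb as higher and bhlhe40 as lower, beside 1.19% of all genes. bhlhe40 had 66.9, 32.9, 42.1, 27.8 and 40.5 CPM in 0.5% EtOH HFHC livers, against 201, 122, 124, 126 and 81.8 CPM in 0% EtOH HFHC livers (log2 fold change -1.63 ± 0.27 (SE), adjusted p = 0.159). rorcb had 55.3, 53.9, 43.3, 56.7 and 61.7 CPM in 0.5% EtOH HFHC livers, against 30.5, 17.9, 16.9, 13.4 and 32.9 CPM in 0% EtOH HFHC livers (log2 fold change 1.29 ± 0.24 (SE), adjusted p = 0.159). The EtOH groups did not overlap in either gene, but both were picked by their small p. The share of all genes with EtOH groups apart was not counted. cry1ab had 29.5, 18.6, 23.1, 37.6 and 24.3 CPM in 0.5% EtOH HFHC livers, against 8.51, 12.3, 27.5, 12.5 and 12.4 CPM in 0% EtOH HFHC livers (log2 fold change 0.87 ± 0.30 (SE), adjusted p = 0.361). nfil3-5 had 0% EtOH HFHC values of 5.16, 2.10, 3.32, 5.06 and 14.9 CPM beside the 0.5% EtOH values above (log2 fold change 0.90 ± 0.44 (SE), adjusted p = 0.459). Only control liver 3 for cry1ab and control liver 6 for nfil3-5 reached the 0.5% EtOH range. per1a had 17.8, 10.5, 20.03, 16.7 and 18.8 CPM in 0.5% EtOH livers (log2 fold change 0.57 ± 0.28 (SE), adjusted p = 0.467) beside the control values above, and tefa gave log2 fold change 0.33 ± 0.20 (SE), adjusted p = 0.566. arntl1a had 0% EtOH HFHC values of 11.6, 9.95, 6.27, 9.21 and 11.1 CPM (log2 fold change 0.31 ± 0.17 (SE), adjusted p = 0.498), and csnk1da had 26.0, 21.3, 33.7, 37.9 and 39.8 CPM in those livers (log2 fold change -0.34 ± 0.23 (SE), adjusted p = 0.602). These 4 genes overlapped between the EtOH groups.

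On ND 0.5% EtOH gave 0 calls among 34 members in edgeR, where 0% of all genes passed, with 5 members (14.7%) at an unadjusted p under 0.05, where 13.7% of all genes had one. DESeq2 called csnk1e as lower, beside 5.96% of all genes. Its reads were highest in 0% EtOH ND livers 2 and 3, which held intestine markers, and the call is not given without them. bhlhe41 gave log2 fold change -1.20 ± 0.43 (SE), adjusted p = 0.263, and only 0.5% EtOH livers 1, 2 and 4 reached the range of the 0% EtOH ND livers. nr1d2a had 27.8, 123, 112, 37.1 and 116 CPM in 0.5% EtOH ND livers, against 227, 185, 304, 60.4 and 182 CPM in 0% EtOH ND livers (log2 fold change -1.24 ± 0.50 (SE), adjusted p = 0.309). cry4 had 3.27, 2.12, 2.66, 4.34 and 4.84 CPM in 0.5% EtOH ND livers, against 8.47, 5.68, 12.6, 3.30 and 3.41 CPM in 0% EtOH ND livers (log2 fold change -0.99 ± 0.40 (SE), adjusted p = 0.316). Both overlapped, and the highest cry4 values were those of 0% EtOH livers 1 and 3, which carried intestine markers. nfil3 had 0.728, 1.61, 0.850, 0.483 and 1.06 CPM in 0.5% EtOH ND livers, with the 0% EtOH values above (log2 fold change -1.46 ± 0.66 (SE), adjusted p = 0.358), and per1b had 0% EtOH values of 28.3, 37.4, 23.1, 45.3 and 40.5 CPM (log2 fold change 0.29 ± 0.20 (SE), adjusted p = 0.574). dbpb had 48.3, 43.7, 35.6, 18.0 and 11.7 CPM in 0.5% EtOH ND livers, against 19.8, 19.4, 13.7, 34.7 and 26.0 CPM in 0% EtOH ND livers (log2 fold change 0.45 ± 0.38 (SE), adjusted p = 0.66). clockb had 5.55, 6.65, 8.40, 7.24 and 7.56 CPM in 0.5% EtOH ND livers, against 1.69, 5.46, 5.76, 6.70 and 5.96 CPM in 0% EtOH ND livers (log2 fold change 0.42 ± 0.30 (SE), adjusted p = 0.582), and csnk1da had 0% EtOH ND values of 36.9, 28.6, 23.6, 37.1 and 17.6 CPM beside the 0.5% EtOH values above (log2 fold change 0.16 ± 0.21 (SE), adjusted p = 0.79). In none of these leading members were the EtOH groups apart on ND.

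The test of 0.5% EtOH by diet called 2 of 36 members (5.56%), where 4.42% of all genes passed, so that the share of the set was close to that of all genes. It also called as higher 6 of 6 exocrine pancreas markers, 4 of 5 intestine markers and 3 of 4 skeletal muscle markers tested. Pancreas markers summed to 182 to 1341 CPM in 0.5% EtOH HFHC livers and 215 to 2881 CPM in 0.5% EtOH ND livers. The part of these tissues was not tested. For bhlhe40 the fitted EtOH effect was -1.63 ± 0.27 on HFHC diet and 0.77 ± 0.32 on ND. On ND it had 213, 99.5, 123, 225 and 96.7 CPM in 0.5% EtOH livers, against 85.0, 71.9, 54.4, 141 and 82.0 CPM in 0% EtOH livers, which overlapped, while on HFHC diet all 0.5% EtOH livers were below the controls. The difference of these effects was -2.43 ± 0.45 on the log2 scale (adjusted p = 0.0157). The call was lost when 0.5% EtOH HFHC liver 2 was left out (adjusted p = 0.0504) and without the intestine-marker livers (-2.01, adjusted p = 0.309). csnk1e (chromosome 12, 19183582 to 19196500) was the other call (log2 fold change 5.17 ± 1.37 (SE), adjusted p = 0.0372), at very low counts. Its reads were 3, 28, 12, 3 and 1 in 0.5% EtOH HFHC livers, 0, 2, 0, 3 and 5 in 0% EtOH HFHC livers, 3, 0, 5, 4 and 5 in 0.5% EtOH ND livers and 5, 51, 108, 3 and 9 in 0% EtOH ND livers, so the fitted fold depends on the prior count. The call was lost in 12 of 20 fits that left out a liver (adjusted p up to 0.126), namely without 0.5% EtOH HFHC liver 2, 0% EtOH HFHC livers 1 to 4, any 0.5% EtOH ND liver, or 0% EtOH ND livers 2 and 3. Without the intestine-marker livers the value was 2.12 (adjusted p = 0.729). The highest csnk1e counts of these 20 livers were in 3 that held intestine markers, 0.5% EtOH HFHC liver 2 and 0% EtOH ND livers 2 and 3, while 0% EtOH ND liver 1, which also held them, had 5 csnk1e reads.

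**Figure D5:**
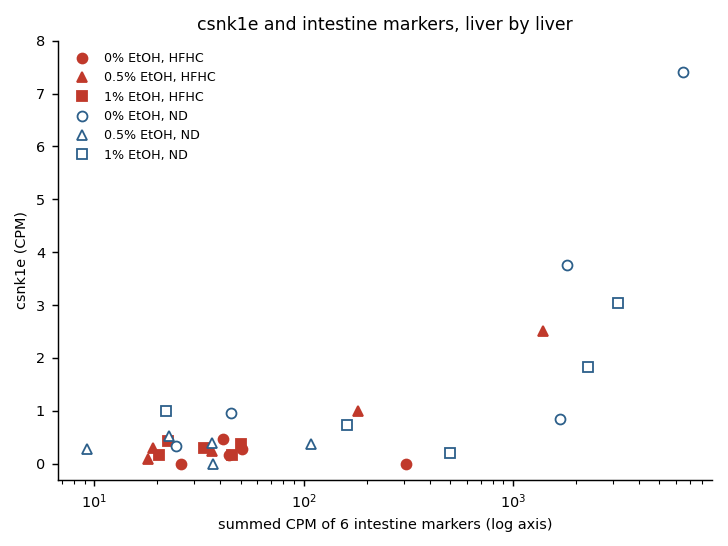
The level of csnk1e in CPM is plotted against the summed CPM of 6 intestine markers on a log axis for each of the 30 livers, with symbols for the EtOH dose and filled symbols for HFHC diet. All livers with over 2 CPM of csnk1e have over 1000 CPM of intestine markers, and the other livers lie at or below 1.84 CPM.

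Of the members that did not pass this test, bhlhe41 came closest (log2 fold change 2.19 ± 0.66 (SE), adjusted p = 0.0653), followed by nr1d2a (log2 fold change 2.84 ± 0.95 (SE), adjusted p = 0.101), cry4 (log2 fold change 1.56 ± 0.53 (SE), adjusted p = 0.106) and rorcb (log2 fold change 1.84 ± 0.64 (SE), adjusted p = 0.111). DESeq2 called 5 members, bhlhe40 as lower and nr1d2a, rorcb, bhlhe41 and csnk1e as higher, beside 7.62% of all genes. nr1d2a had 25.2, 14.7, 30.7, 123 and 303 CPM in 0% EtOH HFHC livers, the group in which it spread most, and cry4 had 4.94, 9.95, 4.32, 4.39 and 4.54 CPM in 0.5% EtOH HFHC livers, against 2.64, 4.63, 1.97, 4.33 and 4.96 CPM in 0% EtOH HFHC livers. The leading members of the other arms were nfil3, with 1.31, 2.51, 1.91, 0.798 and 1.58 CPM in 0.5% EtOH HFHC livers (log2 fold change 1.95 ± 0.80 (SE), adjusted p = 0.179), per1a, with 12.8, 29.7, 15.1, 10.8 and 15.2 CPM in 0.5% EtOH ND livers (log2 fold change 0.78 ± 0.41 (SE), adjusted p = 0.318), dbpb (log2 fold change -1.03 ± 0.72 (SE), adjusted p = 0.468) and arntl1a (log2 fold change 0.32 ± 0.24 (SE), adjusted p = 0.505). dbpb had 26.8, 4.57, 15.5, 22.9 and 9.07 CPM in 0.5% EtOH HFHC livers, against 11.3, 12.7, 46.4, 37.2 and 10.1 CPM in 0% EtOH HFHC livers, and arntl1a had 10.3, 8.34, 8.72, 8.57 and 7.87 CPM in 0% EtOH ND livers. The livers of single groups overlapped in all 4 of these genes.

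The effect of 1% EtOH on ND gave 0 calls among 36 members tested in edgeR, where 0.0154% of all genes passed, with 6 members (16.7%) at an unadjusted p under 0.05, where 4.4% of all genes had one. DESeq2 called cry1bb as higher, beside 0.245% of all genes. cry1bb had 26.0, 27.3, 29.4, 23.0 and 25.1 CPM in 1% EtOH ND livers, against 16.1, 15.7, 16.6, 18.0 and 12.7 CPM in 0% EtOH ND livers (log2 fold change 0.71 ± 0.15 (SE), adjusted p = 0.928). All 1% EtOH ND livers lay above all controls on that diet, but cry1bb was picked by its small p. per1a had 12.04, 12.3, 8.90, 16.9 and 10.4 CPM in 1% EtOH ND livers, against 15.1, 19.1, 16.1, 23.4 and 23.0 CPM in 0% EtOH ND livers (log2 fold change -0.69 ± 0.21 (SE), adjusted p = 0.928), and only 1% EtOH liver 4 reached the control range. nr1d1 had 25.4, 19.3, 19.8, 27.99 and 12.6 CPM in 1% EtOH ND livers, against 42.4, 23.8, 28.5, 35.6 and 34.6 CPM in 0% EtOH ND livers (log2 fold change -0.66 ± 0.24 (SE), adjusted p = 0.928). tefa, with the values above, gave log2 fold change -0.66 ± 0.24 (SE), adjusted p = 0.928, and bhlhe41 gave log2 fold change -1.39 ± 0.52 (SE), adjusted p = 0.928. These 3 genes were lower on average in 1% EtOH livers, with overlap. arntl2 had 0.669, 2.12, 1.17, 1.84 and 1.28 CPM in 1% EtOH ND livers, against 0.508, 1.03, 0.412, 0.110 and 0.638 CPM in 0% EtOH ND livers (log2 fold change 1.33 ± 0.49 (SE), adjusted p = 0.928). nfil3-5 had 7.03, 7.51, 14.4, 4.60 and 1.60 CPM in 1% EtOH ND livers, against 4.07, 1.77, 2.26, 2.20 and 5.85 CPM in 0% EtOH ND livers (log2 fold change 1.12 ± 0.53 (SE), adjusted p = 0.928), and csnk1da gave log2 fold change 0.34 ± 0.22 (SE), adjusted p = 0.928.

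On HFHC diet 1% EtOH gave 0 calls among 35 members in edgeR, where 0.00813% of all genes passed, and 0 in DESeq2, where 0.554% did. At an unadjusted p under 0.05 there were 3 members (8.57%), where 9.65% of all genes had one. cry1bb had 22.5, 29.6, 27.8, 30.3 and 38.3 CPM in 1% EtOH HFHC livers, against 19.3, 17.2, 12.4, 15.9 and 28.3 CPM in 0% EtOH HFHC livers (log2 fold change 0.68 ± 0.21 (SE), adjusted p = 0.417). Here HFHC control liver 6 overlapped the 1% EtOH range. clocka had 3.93, 5.98, 6.05, 3.75 and 7.65 CPM in 1% EtOH HFHC livers, against 4.68, 3.32, 2.15, 2.53 and 3.22 CPM in 0% EtOH HFHC livers (log2 fold change 0.80 ± 0.26 (SE), adjusted p = 0.419), and rorca had 15.5, 17.6, 17.8, 16.1 and 20.4 CPM in 1% EtOH HFHC livers (log2 fold change -0.42 ± 0.13 (SE), adjusted p = 0.406). Of the 1% EtOH livers only liver 5 reached the rorca range of the controls. bhlhe40 had 104, 115, 74.0, 56.3 and 113 CPM in 1% EtOH HFHC livers (log2 fold change -0.50 ± 0.25 (SE), adjusted p = 0.568). tefa gave log2 fold change -0.30 ± 0.16 (SE), adjusted p = 0.608 and nfil3 log2 fold change 0.40 ± 0.38 (SE), adjusted p = 0.769, with the values above. per3 had 107, 88.5, 98.0, 43.7 and 66.8 CPM in 1% EtOH HFHC livers, against 85.8, 77.8, 117, 128 and 115 CPM in 0% EtOH HFHC livers (log2 fold change -0.37 ± 0.23 (SE), adjusted p = 0.653). csnk1db had 47.1, 49.6, 48.0, 50.1 and 45.7 CPM in 1% EtOH HFHC livers (log2 fold change -0.04 ± 0.11 (SE), adjusted p = 0.934), within the control range.

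The test of 1% EtOH by diet called 0 of 36 members in edgeR, where 0% of all genes passed, and 0 in DESeq2, where 0.00865% did. At an unadjusted p under 0.05 there were 0 members, where 4.95% of all genes had one. The smallest p of each arm lay between 0.0982 and 0.279, led by cry4 (0.86 ± 0.50), rorca (-0.64 ± 0.38), bhlhe41 (0.93 ± 0.59), nfil3-5 (-1.05 ± 0.75), per2 (0.39 ± 0.29), csnk1e (1.55 ± 1.23), tefa (0.36 ± 0.29) and arntl2 (-0.79 ± 0.71). cry4 had 6.39, 4.88, 3.81, 5.95 and 6.23 CPM in 1% EtOH HFHC livers and 4.43, 3.84, 7.34, 3.88 and 7.75 CPM in 1% EtOH ND livers. per2 had 14.4, 21.1, 20.4, 22.4 and 19.2 CPM in 1% EtOH HFHC livers and 18.3, 20.9, 16.2, 17.9 and 21.4 CPM in 1% EtOH ND livers. In both genes the diets overlapped. In 0% EtOH livers per2 had 18.0, 21.7, 7.53, 15.3 and 19.3 CPM on HFHC diet and 21.9, 18.6, 23.3, 21.9 and 17.5 CPM on ND. The remaining values of these genes on HFHC diet were 5.49, 4.63, 6.05, 4.85 and 10.8 CPM for nfil3-5, 1.31, 2.19, 1.27, 1.74 and 3.47 CPM for arntl2 and 0.164, 0.421, 0.293, 0.366 and 0.158 CPM for csnk1e in 1% EtOH livers, and 0.959, 0.960, 0.358, 1.90 and 2.66 CPM for arntl2 in 0% EtOH livers. On ND csnk1e had 1.00, 0.735, 3.05, 0.204 and 1.84 CPM and rorca had 19.99, 13.6, 24.2, 19.1 and 13.3 CPM in 1% EtOH livers. Each comparison of an EtOH dose on a diet shares its control livers with the other dose on that diet. The members not named in any liver comparison, cry1aa, cry1ba, nr1d2b, npas2, rorab, hlfa, dbpa and tefb, passed none.

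Genes of different arms were also compared liver by liver over 4 pairs, in 30 livers with the group means subtracted, by a permutation test within groups with Benjamini-Hochberg adjustment over the pairs. The activator arntl1a ran against the output gene dbpb: Pearson's r was -0.70 (permutation p = 8e-05, adjusted p = 0.00032) and Spearman's rho -0.68 (permutation p = 0.00026). With the 2 livers farthest from the median of arntl1a left out r was -0.61 (adjusted p = 0.00728), and it was negative within each of the 6 groups, between -0.94 and -0.25. npas2 and nr1d2a had r = 0.41 (permutation p = 0.0206, adjusted p = 0.0412) and rho = 0.43 (permutation p = 0.024), but r was 0.37 (adjusted p = 0.0884) without the 2 farthest livers, so that the call was lost at a similar r. per1a and nr1d1 had r = 0.32 (permutation p = 0.167, adjusted p = 0.223) and rho = 0.41 (permutation p = 0.0514). For arntl1a and nr1d1 r was -0.06 (permutation p = 0.867) and rho -0.18 (permutation p = 0.405), and within groups r ran between -0.58 and 0.57.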

How the data were processed

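Members were the 40 listed symbols, chosen, like the other gene lists, with earlier results of these data known. Every member is accounted for, each one past the threshold is named, and the member with the smallest p of each arm is given with every sample. Groups of a member picked by its small p tend to lie apart, and the share of all genes with groups apart was not counted. For larvae, the authors aligned reads with STAR 2.4 to GRCz10 and deposited read counts per gene and TPM values; the larval counter is not given in the sources used here. For livers, they used STAR 2.3 and HTSeq 0.6.0 and deposited counts in 4 tables. The 40 columns of counts divided by size factors were not used, nor the authors' fold changes and p-values. The counts were fitted in R 4.3.3 with edgeR 4.0.16 (filterByExpr, TMM, quasi-likelihood test), with 12 larval pools in 1 fit, 10 livers per EtOH or diet comparison and 20 per interaction, and p-values were adjusted by Benjamini-Hochberg over all genes tested, with a threshold of 0.05. Errors of fold changes are SE. Alternatives used limma 3.58.1 on log2(TPM + 1) and log2(TPM + 0.1), DESeq2 1.42.0 and other filters and scalings. On simulated counts with 200 changed genes, the test recovered 92.0% and 100% of log2 changes of 1 and 2 in control larvae, and 43.0% and 89.0% in the comparison of 1% EtOH HFHC livers, with 8.57% and 3.65% false among the calls of the larval and the liver simulation. That liver comparison had the lowest common variation of the liver comparisons (29.6%, the highest being 50.5%), and the others were not simulated. Changes smaller than 1 on the log2 scale were not simulated either. Livers were joined by Ensembl identifier, and positions are those of the liver tables. Groups came from the labels, replicates are separate pools or fish, and no 2 libraries of a group agreed within counting noise. In the study the diets were given by tank, and the labels name no tank. Whether samples of a group shared a tank, and the part of tanks in the diet results, cannot be told. Sequence motifs were not analysed here.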

Additional observations from a re-analysis of the deposited data

Results flagged for a closer look

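In 216 groups tested (36 members in each of the 6 liver groups) 15 had a liver far from the other 4, where chance flags about 1 in 20 groups. On ND these were per1a in 0.5% EtOH liver 2 (29.7 CPM), cry2 in 1% EtOH liver 4 (15.4 CPM) and, in 0% EtOH liver 1, the low values of clockb (1.69 CPM), arntl1b (0.339 CPM) and rorca (4.4 CPM). In 0% EtOH HFHC livers they were cry1ab in liver 3 (27.5 CPM) and nfil3-5 in liver 6 (14.9 CPM). In 0.5% EtOH HFHC livers they were cry4 in liver 2 (9.95 CPM), clocka and arntl2 in liver 5 (7.69 and 3.06 CPM) and rorab in liver 3 (39.9 CPM). In 1% EtOH HFHC livers they were per1a in liver 1 (24.2 CPM), rorab in liver 3 (65 CPM), nfil3-5 in liver 5 (10.8 CPM) and csnk1da in liver 2 (49.2 CPM). Liver 1 of the 0% EtOH ND group and liver 2 of the 0.5% EtOH HFHC group are among those with intestine markers.

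The effect of 0.5% EtOH differed between the diets, by the interaction test in edgeR, for bhlhe40 (-2.43 on the log2 scale) and csnk1e (5.17). Without the 6 livers with intestine markers, which leaves 2 livers in the 0% EtOH ND group, neither passed: the value was -2.01 for bhlhe40 (adjusted p = 0.309) and 2.12 for csnk1e (adjusted p = 0.729), and the cause was not tested.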

How the results depend on the processing

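The 60 values of single members with an adjusted p under 0.1 were recomputed under each alternative, and of these recomputed values none reversed, 767 kept their side of the threshold, 97 no longer passed and 31 newly passed. The counts of members called moved as follows, and the causes were not tested unless the setting itself removes samples. For HFHC diet in control livers (1 in the report) the count was 4 with all 30 livers in 1 fit, 4 in DESeq2, 0 with a replicate block, 0 without the intestine-marker livers (chosen after seeing the data) and 1 to 3 with a liver left out. For 0.5% EtOH by diet (2 in the report) it was 4 with all 30 livers in 1 fit, 5 in DESeq2, 1 with the block, 0 without the intestine-marker livers and 0 to 4 with a liver left out (0 without 0.5% EtOH HFHC liver 2, 4 without 0% EtOH ND liver 4 or 0% EtOH HFHC liver 6). For HFHC diet in 0.5% EtOH livers (0) it was 2 with all 30 livers, 6 in DESeq2 and 0 to 1 with a liver left out. For 0.5% EtOH on ND (0) it was 1 with all 30 livers and 1 in DESeq2. DESeq2 also gave 2 for 0.5% EtOH on HFHC diet, 1 for 1% EtOH on ND and 1 for HFHC diet in 1% EtOH livers. The larval interaction (0) gave 1 with no filter on low counts, 2 in DESeq2 and 0 to 2 with a pool left out. The larval diet counts ran between 18 and 23 (24 in the report) and between 10 and 14 (14 in the report) with a pool left out. Under the other alternatives, DESeq2 among them, they ran between 19 and 24 and between 12 and 14. Correlations that changed sides were npas2 with nr1d2a (0.34 with group means kept, 0.37 without the 2 farthest livers) and per1a with nr1d1 (0.56 and 0.47). The deviations of samples with equal replicate numbers correlated between -0.557 and 0.572. For 0.5% EtOH on ND 3 of 5 numbers matched best with their own, and in every other comparison 0 to 2 did. Whether equal numbers mark a shared family cannot be told from these values, so the block fits stand beside the main ones. The block gave 21 and 12 larval diet calls. Single livers varied more than pools (common biological variation 29.6% to 50.5%, against 7.35%), which limits what 5 livers a group can show.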
